A study of Mus musculus with 20 samples.

Results

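Npas4, Fos, Fosb, Fosl2, Junb, Egr1, Egr2, Egr3, Egr4 and Nr4a1 are transcription factor genes that neurones switch on when they are active, and their mRNA was measured in the whole hippocampus of 20 mice, 1 Affymetrix Mouse Genome 430 2.0 array per mouse. The 10 genes were taken by symbol, of 18193 genes that had a probe set listed with a single gene, and each was read from its probe set of the highest mean over the 20 arrays. They have 13 such probe sets, since Egr2, Egr3 and Fosl2 have a second one each. A probe set entered the tests when it read at least 100 in at least 2 arrays, which 8 of the 10 genes did and Fosb and Egr2 did not. Npas4 reached 100 in 5 arrays and Junb in 8, the other 6 in all 20.

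All mice were male, either wild-type C57BL/6J or Hsd11b1-/-, that is homozygous for a targeted disruption of the gene of 11β-hydroxysteroid dehydrogenase type 1 in every tissue, congenic on C57BL/6J. This enzyme regenerates active glucocorticoid inside cells. The groups, each of 4 mice, were young wild-type mice (WT_Y, 6 months), aged wild-type mice that were memory-unimpaired (WT_AU) or memory-impaired (WT_AI) in the Y-maze (24 months), young Hsd11b1-/- mice (KO_Y, 6 months) and aged Hsd11b1-/- mice (KO_A, 24 months). Every mouse had been through the Y-maze and was culled in the morning some days after the last trial, so these are levels some days after testing. Memory status divides the aged wild-type mice into WT_AU and WT_AI. The study reports intact spatial memory in all aged Hsd11b1-/- mice.

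The deleted gene bore out the genotype labels, since Hsd11b1 was at least 549.6 in each of 12 wild-type mice and at most 65.2 in each of 8 knockouts. Array medians lay between 39.4 and 41.3. The neuronal gene Snap25 read between 9939 and 11722 in all mice, Wfs1 of CA1 between 521.0 and 930.4 and Prox1 of the dentate gyrus between 63.2 and 227.3. The samples also differed in transcripts typical of other tissues, and how these came into the samples was not tested. Ttr, of the choroid plexus, read between 1143 and 21917.7, and the liver-made albumin gene Alb read at least 400 in 5 mice (WT_Y-369, WT_Y-374, WT_AI-51, KO_Y-578 and KO_A-42) and between 31.6 and 170.4 in the other 15. The fold changes of Npas4 and Fos and the correlations of Npas4 with the other 9 genes are also given without those 5 mice.

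These genes belong to the first wave of the transcriptional response to synaptic input. Calcium entering through NMDA receptors and L-type channels activates kinases that phosphorylate CREB and the ternary complex factors on serum response factor, which already sit at the promoters, so that transcription starts within minutes and needs no new protein. Npas4, a basic helix-loop-helix PAS factor, pairs with Arnt or Arnt2, answers to calcium in neurones and shapes inhibitory synapses and memory in the hippocampus. Fos, Fosb and Fosl2 pair with Jun proteins such as Junb in the AP-1 complex. Egr1 to Egr4 are zinc finger factors, of which Egr1, Egr2 and Egr3 are restrained by Nab1 and Nab2, and Nr4a1 is an orphan nuclear receptor. Their mRNAs are short-lived, and products such as Dusp1 shut the signalling off again.

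The stretches before the start sites are shown because they are where CREB acts on several of these genes. The RefSeq promoter table (GRCm38.p6) held windows of 300 bases, 250 before to 50 after the start, for 8 of the 10 genes, all but Egr1 and Egr3. The 250 bases before the start are printed 5′ to 3′ on the gene's strand, with the half-site of the cAMP response element (TGACG, or CGTCA on the other strand) in capitals. Npas4 lies at chr19:4989972-4990221 (minus strand), Fos at chr12:85473640-85473889 (plus strand), Nr4a1 at chr15:101266596-101266845 (plus strand), Junb at chr8:84978749-84978998 (minus strand) and Fosl2, the family member without a half-site, at chr5:32136222-32136471 (plus strand).
Npas4: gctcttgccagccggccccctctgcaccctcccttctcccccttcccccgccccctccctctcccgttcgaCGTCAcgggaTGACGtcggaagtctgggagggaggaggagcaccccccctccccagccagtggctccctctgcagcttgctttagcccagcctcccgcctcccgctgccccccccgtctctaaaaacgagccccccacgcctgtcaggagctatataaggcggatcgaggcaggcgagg
Fos: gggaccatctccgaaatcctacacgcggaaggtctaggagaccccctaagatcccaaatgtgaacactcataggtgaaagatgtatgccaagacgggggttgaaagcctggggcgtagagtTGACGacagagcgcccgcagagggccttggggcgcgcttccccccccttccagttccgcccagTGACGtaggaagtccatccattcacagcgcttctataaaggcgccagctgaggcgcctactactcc
Nr4a1: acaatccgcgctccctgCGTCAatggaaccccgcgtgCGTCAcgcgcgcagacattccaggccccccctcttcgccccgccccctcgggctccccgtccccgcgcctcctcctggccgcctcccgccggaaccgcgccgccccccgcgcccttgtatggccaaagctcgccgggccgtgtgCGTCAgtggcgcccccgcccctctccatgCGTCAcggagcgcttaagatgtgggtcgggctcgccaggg
Junb: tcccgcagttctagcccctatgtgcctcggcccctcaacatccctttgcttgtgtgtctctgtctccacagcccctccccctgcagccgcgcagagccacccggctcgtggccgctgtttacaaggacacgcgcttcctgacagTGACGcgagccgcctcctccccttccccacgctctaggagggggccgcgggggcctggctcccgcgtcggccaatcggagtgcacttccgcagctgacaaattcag
Fosl2: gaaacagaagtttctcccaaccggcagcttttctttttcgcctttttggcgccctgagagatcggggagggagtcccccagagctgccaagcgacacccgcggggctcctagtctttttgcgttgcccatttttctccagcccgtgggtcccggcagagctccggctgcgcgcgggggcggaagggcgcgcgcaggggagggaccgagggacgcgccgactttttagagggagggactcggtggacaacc

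The half-site stood in a window of 7 of the 8 genes, against 20.8% of the 32817 windows of that length in the table. Nr4a1 held 4 of them, Npas4, Fos and Egr4 held 2 each, and Junb and Fosb held 1 each. Egr2, with 5 listed starts, had windows with 2. Of all windows, 5.01% held 2 or more and 1.03% held 3 or more. The full element TGACGTCA, which contains the half-site on both strands, was in no window of the 8 (1.79% of all windows), nor was an AP-1 site (TGACTCA or TGAGTCA, 5.2% of all windows). An EGR site (GCGTGGGCG or GCGGGGGCG, 3.47% of all windows) was in those of Fosb, Fosl2 and Nr4a1. Egr2 also had the E-box CACGTG (7.15% of all windows) and the CArG box, the letters that serum response factor binds (1.63% of all windows). Both strands were searched. These are matches of letters only.

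Npas4 had the widest spread of the 10 genes. In mice WT_Y-369, WT_Y-371, WT_Y-373 and WT_Y-374 it read 121.9, 98.5, 46.7 and 201.6. In mice WT_AU-126, WT_AU-23, WT_AU-26 and WT_AU-57 it read 85.6, 103.3, 98.1 and 82.0, and in mice WT_AI-14, WT_AI-21, WT_AI-49 and WT_AI-51 it read 46.0, 35.2, 45.5 and 112.6. Among the wild-type mice, 3 of 4 WT_AI mice were thus below all WT_AU mice, while mouse WT_AI-51 was above all of them. Mice KO_Y-575, KO_Y-578, KO_Y-580 and KO_Y-585 read 44.9, 85.1, 96.3 and 42.8, and mice KO_A-41, KO_A-42, KO_A-222 and KO_A-223 read 58.6, 201.4, 37.3 and 94.7. The groups overlapped in every comparison. The means were 117.2 ± 64.5 in WT_Y, 92.2 ± 10.1 in WT_AU, 59.8 ± 35.5 in WT_AI, 67.3 ± 27.4 in KO_Y and 98.0 ± 72.9 in KO_A (SD, n = 4 each). The order of these means from high to low was WT_Y, KO_A, WT_AU, KO_Y and WT_AI, with KO_A (mean 6.33) below WT_AU (6.52) on the log2 scale, and no neighbours in it differed beyond their spread. In whole tissue, fewer cells that make a transcript and less of it per cell cannot be told apart.

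Fos, the best known of the AP-1 genes, followed Npas4 closely. It read 558.6, 582.5, 210.6 and 787.5 in the WT_Y mice (in the same order of mice throughout), 449.3, 411.2, 530.2 and 561.7 in WT_AU, and 282.6, 286.7, 220.1 and 414.4 in WT_AI. Of the WT_AI mice only WT_AI-51 reached the lowest WT_AU mouse. In KO_Y it read 276.6, 443.4, 478.5 and 313.4, and in KO_A 347.1, 707.9, 357.3 and 353.7. Mouse KO_A-42 stood alone in its group. Junb, a Jun protein that pairs with Fos, read 117.1, 126.6, 76.4 and 93.1 in WT_Y, 93.7, 96.7, 123.5 and 122.6 in WT_AU, and 85.5, 80.0, 81.4 and 99.9 in WT_AI. In KO_Y it read 84.4, 128.3, 122.2 and 84.5, and in KO_A 112.9, 129.4, 69.2 and 88.7. It was below 100 in 12 of the 20 mice, all 4 of WT_AI among them.

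Fosl2, which forms longer-lived AP-1 complexes, had another distribution. It read 369.5, 364.0, 359.0 and 328.5 in WT_Y, 539.2, 344.2, 472.4 and 450.1 in WT_AU and 402.3, 351.6, 343.5 and 326.1 in WT_AI. It read 407.1, 430.1, 412.2 and 400.1 in KO_Y and 507.2, 325.6, 346.9 and 321.4 in KO_A. All 4 KO_Y mice were above all 4 WT_Y mice. This was the only pair of groups that did not overlap for any of the 10 genes in the 6 comparisons between groups, and 2.57% of all probe sets did not overlap in KO_Y against WT_Y (3.52% in WT_AI against WT_Y, 4.04% in WT_AU against WT_Y, 1.28% in WT_AI against WT_AU, 7.27% in KO_A against KO_Y and 3.56% in WT_AI against KO_A). Fosb read between 20.2 and 27.9 in the 20 mice, under the filter in all of them.

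Of the zinc finger genes, Egr1, a factor needed for lasting synaptic potentiation, spread less than Npas4 and Fos. Its values were 2279, 2288, 1381 and 2363 in WT_Y, 1846, 1607, 2160 and 2514 in WT_AU, and 1582, 1614, 1422 and 1895 in WT_AI. In KO_Y it read 1790, 2360, 2314 and 2003, and in KO_A 1486, 2853, 1480 and 1755. As for Fos, mouse WT_Y-373 was the low one of its group and mouse KO_A-42 the high one. Egr2 was faint, under 100 in all mice, but spread widely, from 14.3 to 43.6 in WT_Y, from 24.7 to 52.1 in WT_AU, from 13.6 to 29.1 in WT_AI, from 18.4 to 30.6 in KO_Y and from 19.6 to 44.5 in KO_A. Egr3, which takes part in muscle spindle and memory formation, was the steadiest, between 1239 and 1663 in all mice, and Egr4 read between 104.4 and 169.9. The nuclear receptor gene Nr4a1 read 677.2, 682.0, 452.7 and 709.5 in WT_Y, 620.8, 573.3, 750.6 and 830.2 in WT_AU, and 500.5, 524.1, 472.6 and 666.7 in WT_AI. It read 570.2, 701.9, 711.7 and 614.2 in KO_Y and 545.5, 818.9, 533.1 and 583.4 in KO_A. Mouse WT_Y-373 was the lowest of all 20, and the highest was WT_AU-57, followed by KO_A-42.

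**Figure D1:**
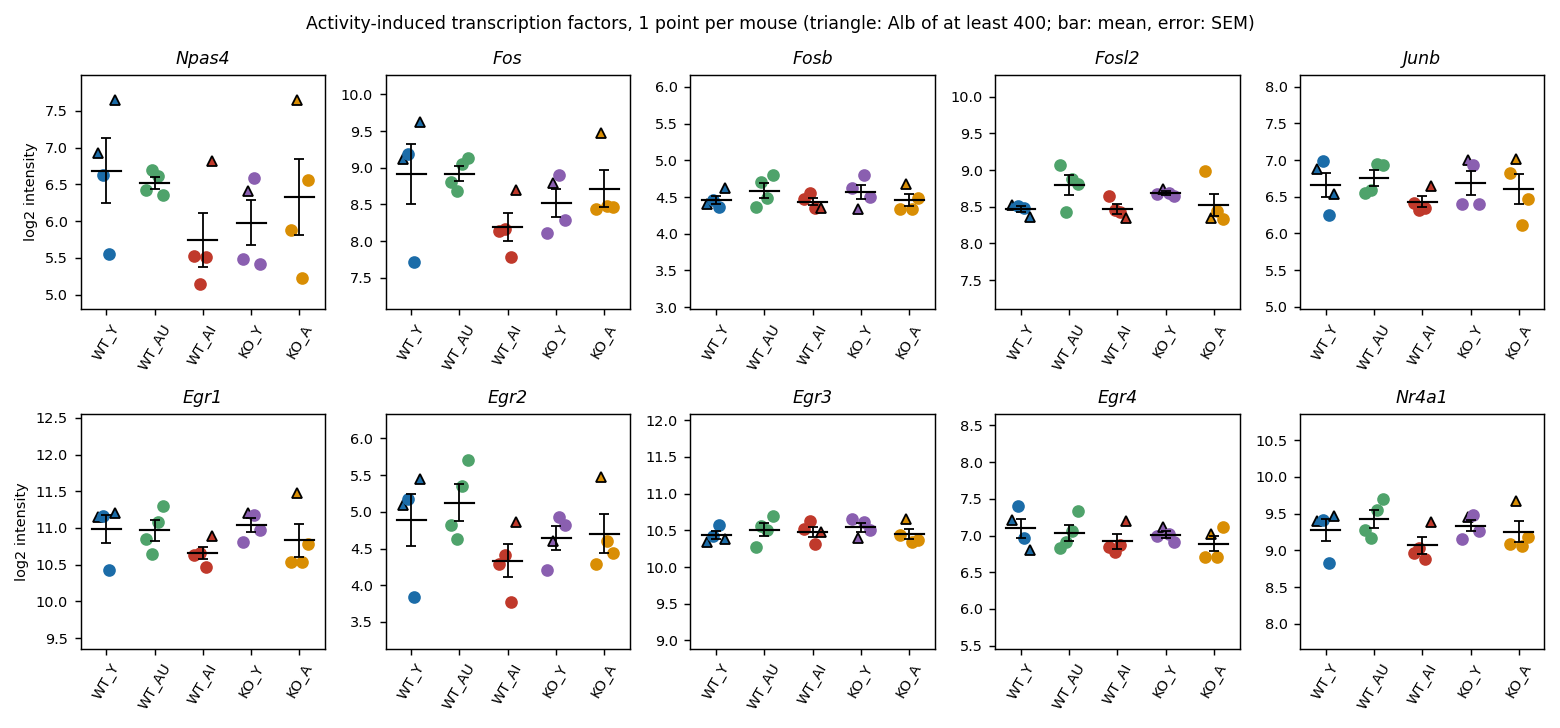
Log2 intensity (vertical axis) of each of the 10 genes in the 5 groups (horizontal axis), 1 point per mouse, with the mean of the log2 values (bar) and its SEM (error bar, n = 4); triangles mark the 5 mice with an Alb value of at least 400, and all panels span the same number of log2 units. Npas4, Fos and Egr2 spread most within groups and Egr3 and Fosb least, and a triangle is the highest Npas4 point in WT_Y, WT_AI and KO_A.

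The first question was whether any of these genes differed between groups, by age, by memory status or by genotype. By limma, with all 5 groups in 1 fit and Benjamini-Hochberg adjustment over 16995 probe sets, none of the 8 tested genes was called at an adjusted p of 0.05 in any of the 7 comparisons. Over all probe sets, the called share was 0.141% in WT_AI against WT_Y, 0.43% in WT_AU against WT_Y, 0% in WT_AI against WT_AU, 2.41% in KO_A against KO_Y, 0.129% in KO_Y against WT_Y, 0.0118% in WT_AI against KO_A and 0% for the difference between the age effects of KO_A against KO_Y and of WT_AI against WT_Y. At an unadjusted p of 0.05, 1 of the 8 (Fos) passed in WT_AI against WT_Y, 1 (Fosl2) in WT_AU against WT_Y and 3 (Fos, Fosl2 and Nr4a1) in WT_AI against WT_AU. The share of all probe sets at that threshold was 4.87%, 6.06% and 0.883% in these. None of the 8 passed it in KO_A against KO_Y (20.9% of all), KO_Y against WT_Y (3.71%), WT_AI against KO_A (10.7%) or for the difference between the age effects (9.27%). The arrays of each of the 5 groups serve in more than 1 comparison, and the comparisons are therefore not independent of one another.

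Between the aged wild-type groups, all 10 genes had a lower mean log2 value in WT_AI than in WT_AU. They were read in the same mice and several of them varied together within groups, so these are not 10 independent results. The median log2 fold change of the 8 tested was -0.33, against -0.01 for all probe sets, of which 54.3% were below 0. Npas4 differed by -0.78 (SE 0.47, unadjusted p = 0.119, adjusted p = 1.0 by limma), with 3 of 4 WT_AI mice below the WT_AU mean. Fos differed by -0.72 (SE 0.32, unadjusted p = 0.0364, adjusted p = 1.0 by limma), with 4 of 4 below. An exact permutation test of the same means, two-sided, gave p = 0.143 for Npas4 and p = 0.0571 for Fos, where 4 against 4 mice can reach 0.0286. Nr4a1 differed by -0.36, Fosl2 by -0.33, Junb by -0.33, Egr1 by -0.31, Egr4 by -0.12 and Egr3 by -0.03. In Egr2, which was too faint for the fit, the difference of means was -0.79 on the log2 scale, from 36.5 ± 12.5 in WT_AU to 20.9 ± 6.39 in WT_AI (SD, n = 4; exact permutation p = 0.0857), and in Fosb it was -0.15. No WT_AU mouse and 1 WT_AI mouse (WT_AI-51) had high Alb. In the fit without the 5 mice of high Alb the difference was -1.13 (SE 0.33, unadjusted p = 0.00424) for Npas4, -0.89 (SE 0.27, unadjusted p = 0.00518) for Fos and -0.46 for Nr4a1, with limma's adjusted p still 1.0 for each. Mouse WT_AI-51 was the highest of WT_AI in Npas4, Fos and Nr4a1, so these differences had to grow without it. The exclusion was chosen after seeing the data, so these unadjusted p add no support.

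Against the young wild-type mice, WT_AI was lower in Npas4 by a log2 fold change of -0.94 (SE 0.47, unadjusted p = 0.0622, adjusted p = 1.0 by limma; 3 of 4 mice below the WT_Y mean). Fos differed by -0.72 (SE 0.32, unadjusted p = 0.038, adjusted p = 0.982 by limma; 4 of 4 below). Egr1 differed by -0.33, Junb by -0.23, Nr4a1 by -0.21, Egr4 by -0.18, Egr3 by 0.05 and Fosl2 by -0.00039. The median of the 8 was -0.22, against -0.01 for all probe sets, of which 55.2% were below 0. WT_Y held 2 of the mice of high Alb, and without all 5 the values were -0.69 for Npas4 and -0.42 for Fos. With the mean of the liver genes Alb, Apoa1 and Apoa2 as a covariate they were -0.21 and -0.23. How far the liver transcripts bear on this comparison was not tested beyond these fits.

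Between WT_AU and WT_Y the sign of the same genes was not settled. Npas4 differed from WT_Y by -0.17, Fos by 0.01, Egr1 by -0.02, Junb by 0.09, Nr4a1 by 0.15 and Fosl2 by 0.33 (SE 0.13, unadjusted p = 0.0205, adjusted p = 0.657 by limma), the last with 3 of 4 WT_AU mice above the WT_Y mean. The sign for Npas4 rests on 1 mouse, and was 0.155 without mouse WT_Y-374. That for Fos was -0.39 without mouse WT_Y-373. Without the 5 mice of high Alb, of which WT_Y held 2 and WT_AU none, WT_AU was above WT_Y by 0.44 in Npas4 (SE 0.37), 0.47 in Fos (SE 0.30) and 0.30 in Nr4a1 (SE 0.16), with unadjusted p = 0.263, 0.147 and 0.0776 and adjusted p = 0.766, 0.69 and 0.602 by limma. With the liver covariate the values were 0.65, 0.56 and 0.40.

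Among the Hsd11b1-/- mice, KO_A differed from KO_Y in Npas4 by 0.35 (SE 0.47, unadjusted p = 0.469) and in Fos by 0.19 (SE 0.32, unadjusted p = 0.563). Both values turned negative, to -0.09 and -0.06, without mouse KO_A-42, which had the highest Npas4, Fos and Alb of its group, and were 0.05 and 0.03 without all 5 mice of high Alb. The difference between the age effect in these mice and that of WT_AI against WT_Y was 1.29 for Npas4 (SE 0.67, unadjusted p = 0.0695, adjusted p = 0.568 by limma) and 0.91 for Fos (SE 0.45, unadjusted p = 0.0609, adjusted p = 0.557 by limma), and 0.75 and 0.45 without the mice of high Alb. The other 6 genes had differences between -0.16 and 0.15. Young Hsd11b1-/- mice read lower than WT_Y in Npas4 by a log2 fold change of -0.71 (SE 0.47, unadjusted p = 0.151), with 4 of 4 below the WT_Y mean, and in Fos by -0.39, values that were -0.25 and -0.02 without the mice of high Alb. Fosl2 was higher in KO_Y by 0.22 (SE 0.13, unadjusted p = 0.113, adjusted p = 1.0 by limma; exact permutation p = 0.0286, the smallest possible). Between the aged groups that differed in memory and genotype, WT_AI was below KO_A by a log2 fold change of -0.58 in Npas4 (SE 0.47, unadjusted p = 0.235, adjusted p = 0.63 by limma) and of -0.52 in Fos (SE 0.32, unadjusted p = 0.124, adjusted p = 0.53 by limma). With single mice left out the value for Npas4 ran from -0.95 to -0.14, the last without KO_A-42, and without the mice of high Alb the values were -0.50 and -0.43.

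**Figure D2:**
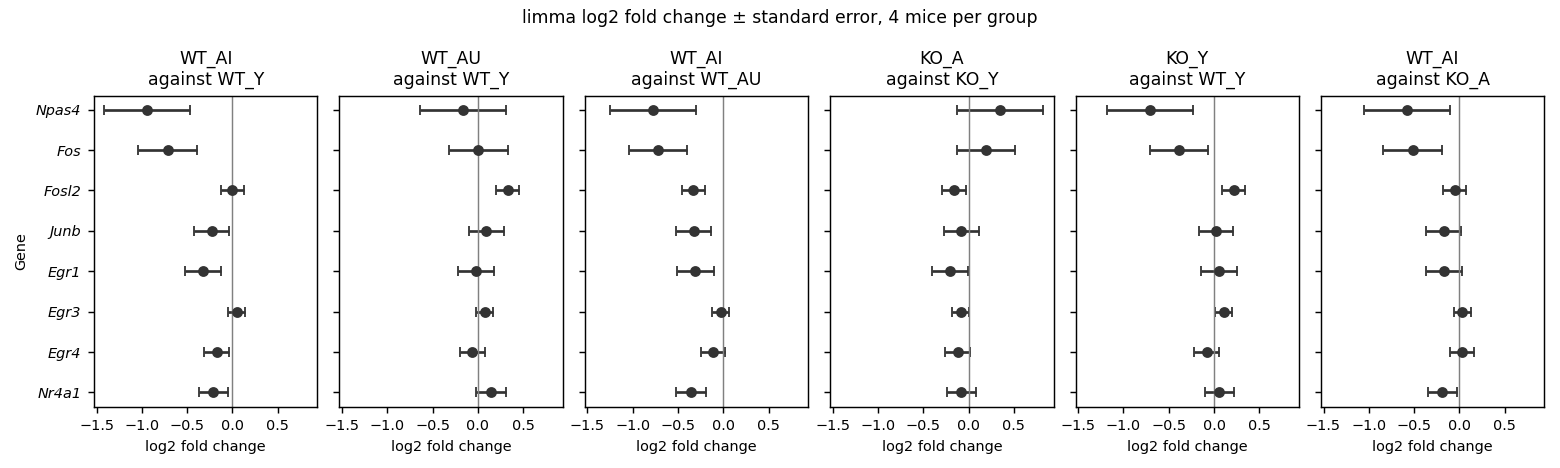
Log2 fold change by limma (horizontal axis; point, with its standard error as the bar) of the 8 genes that passed the filter (vertical axis) in 6 comparisons of 4 mice each. Npas4 and Fos lie lowest where WT_AI is compared with another group and also in KO_Y against WT_Y, and no gene passed an adjusted p of 0.05.

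Rank products, the second method of the study, orders all genes within each pair of arrays and permutes the genes within arrays, so its p compares a gene with the other genes and not with the spread between mice. At p under 0.05 and a change of 1.5-fold, it called Npas4 (1.92-fold lower, permutation p = 3.88e-05) and Fos (1.64-fold lower, permutation p = 2.53e-05) in WT_AI against WT_Y, where 1.11% of all probe sets were called. It called both again in WT_AI against WT_AU, where 0.124% were called (1.71-fold and 1.65-fold lower, permutation p = 2.35e-06 and 1.77e-06). In KO_Y against WT_Y, where 0.859% were called, it called Npas4 (1.64-fold lower, permutation p = 0.00016). It called none of the 8 in WT_AU against WT_Y (1.36% of all probe sets), KO_A against KO_Y (1.34%) or WT_AI against KO_A (0.247%). In the last, Npas4 missed only the fold threshold (1.497-fold lower, permutation p = 0.000104). Without the mice of high Alb it called Npas4 alone in WT_AI against WT_Y (3 against 2 mice, 1.62-fold lower, 1.04% of all probe sets called). It then called both genes in WT_AI against WT_AU (3 against 4 mice, 2.19-fold and 1.85-fold lower, 0.135% called) and neither in KO_Y against WT_Y (3 against 2 mice, 0.894% called). The 2 WT_Y mice left were WT_Y-371 and WT_Y-373, the latter the lowest of its group in Npas4 and Fos. The study picked Npas4 from these arrays, so its calls here are not independent evidence of its direction. The study also used quantitative PCR in larger groups, partly of the same mice. By that method it found Npas4 lower in WT_AI than in WT_Y and WT_AU, but not lower in KO_Y than in WT_Y. By in situ hybridisation, again partly in the same mice, it found less Npas4 mRNA in CA1 of WT_AI than of young wild-type mice.

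The second probe sets, all under the filter, were compared in a fit with no filter. That of Egr2, at 10.8 to 51, gave a log2 fold change of -0.71 in WT_AI against WT_AU (SE 0.29, unadjusted p = 0.0224, adjusted p = 1.0 by limma). That of Fosl2, at 26.7 to 38.7, gave 0.03 where the brighter one gave -0.33. That of Egr3, at 43.2 to 55.7, gave 0.21 in WT_AI against WT_Y (SE 0.07, unadjusted p = 0.00543, adjusted p = 0.59 by limma) and 0.09 in WT_AI against WT_AU. The probe sets of Egr2 thus had the same sign, and those of Fosl2 and Egr3 did not in WT_AI against WT_AU.

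More of the variation lay between mice of a group than between groups. The SD of log2 values within groups was 0.75 for Npas4, 0.52 for Egr2, 0.50 for Fos, 0.31 for Egr1, 0.30 for Junb, 0.25 for Nr4a1, 0.20 for Egr4 and Fosl2, 0.16 for Fosb and 0.14 for Egr3, against a median of 0.12 over all probe sets kept. Npas4 exceeded 99.5% of these and 98.5% of the 1655 whose mean lay within 0.5 log2 units of its own. Fos exceeded 99.1% of all and 99.7% of 3900 of like level. Groups accounted for 22.3% of the variance of Npas4 and 27.9% of that of Fos, where the median probe set had 22.2%. Of the 10 genes Fosl2 had the highest share, 37.0%, and Egr3 the lowest, 9.62%.

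The second question was whether the genes deviated together within groups. After the group mean was subtracted from each log2 value, Npas4 correlated over the 20 mice with Fos (r = 0.83, Spearman's rho = 0.75), Nr4a1 (0.79 and 0.72), Egr1 (0.78 and 0.71), Junb (0.67 and 0.64) and Egr2 (0.66 and 0.61). The permutation p for r, with mice permuted within groups, was 0.00075 for Fos, 0.00107 for Nr4a1, 0.00104 for Egr1, 0.0116 for Junb and 0.00956 for Egr2, and 0.00338, 0.00175, 0.00159, 0.0186 and 0.0104 for rho. With Benjamini-Hochberg adjustment over the 9 relations these 5 passed 0.05, with adjusted p = 0.00321 for the first 3 and 0.0209 for Junb and Egr2 (for rho 0.0101, 0.00788, 0.00788, 0.0335 and 0.0234). Those 9 genes were chosen with results of these data known. Over all 9892 genes correlated with Npas4 in the same way, 4.65% passed an unadjusted permutation p of 0.05 and 0% passed after adjustment over all of them, the lowest adjusted p of the 9 being 0.479, for Fos, Egr1 and Nr4a1. Egr4 (r = 0.39, rho = 0.46), Fosb (0.36 and 0.28), Egr3 (0.02 and -0.05) and Fosl2 (-0.31 and -0.25) had unadjusted permutation p from 0.132 to 0.947 for r and from 0.0715 to 0.865 for rho.

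The relation leans on a few mice. Without the 2 farthest from the median of Npas4 (KO_A-42 and WT_AI-51), r was 0.76 with Fos, 0.65 with Egr1, 0.63 with Nr4a1, 0.55 with Junb and 0.48 with Egr2, and 0 of the 9 relations passed (adjusted permutation p = 0.0612 for the first 3). Without each of mice WT_Y-373, WT_AI-51 and KO_A-42 alone, 3 passed by r, those of Fos, Egr1 and Nr4a1. By rho, 3 passed without KO_A-42, but 0 without WT_Y-373 (lowest adjusted permutation p = 0.0558) and 0 without WT_AI-51 (0.0527). In the 15 mice with Alb under 400, r was 0.59 with Fos (unadjusted permutation p = 0.206), 0.53 with Egr1, 0.50 with Nr4a1 and 0.29 with Egr2. These were lower than over all mice. By contrast, r was 0.70 with Junb (0.67 over all mice), 0.57 with Egr4 (0.39) and 0.42 with Fosb (0.36). For Fosl2 it was -0.10 (-0.31) and for Egr3 -0.13 (0.02). After adjustment 0 of 9 passed. The groups then held 2 to 4 mice, so the lack of a pass does not show that a relation was absent.

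Fos, Egr1, Egr2 and Nr4a1 were tied more tightly to one another than any of the 10 was to Npas4. Egr1 and Nr4a1 had r = 0.97, Egr2 and Nr4a1 0.94, Fos and Nr4a1 0.93, Fos and Egr2 0.92, Egr1 and Egr2 0.92 and Fos and Egr1 0.91. In the 15 mice with Alb under 400 these were 0.99, 0.93, 0.89, 0.89, 0.93 and 0.89, so that the tie between Fos, Egr1, Egr2 and Nr4a1 was about as close without the mice of high Alb. Of all 9890 kept genes, Nr4a1 was the one most like Egr1 and most like Fos, and Egr1 was second for Fos. The 15 pairs among Npas4, Fos, Junb, Egr1, Egr2 and Nr4a1, a set of 6 chosen after their values were seen and so given as a description, had r from 0.60 to 0.97. The 30 other pairs had r from -0.46 to 0.72, with a median of 0.19. The highest of these was that of Egr3 with the faint Fosb. In the 15 mice with Alb under 400 the 2 ranges overlapped widely, from 0.29 to 0.99 and from -0.42 to 0.82. There Egr4 had r = 0.82 with Egr1 and 0.79 with Nr4a1, where Npas4 had 0.53 and 0.50.

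Read mouse by mouse, 3 animals carried the ends. Mouse WT_Y-373 was the lowest of its group in all 6 genes, by 0.80 log2 units on average below the group mean. Mouse WT_AI-51 was the highest of its group in all 6, by 0.47 on average, and mouse KO_A-42 in all 6, by 0.72, and in 8 of the 10 genes. The WT_AU mice stayed closer to their mean, from -0.22 to 0.24 on average over the 6. In KO_Y, mouse KO_Y-580 was highest in 4 of the 6 and mouse KO_Y-575 lowest in 5.

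**Figure D3:**
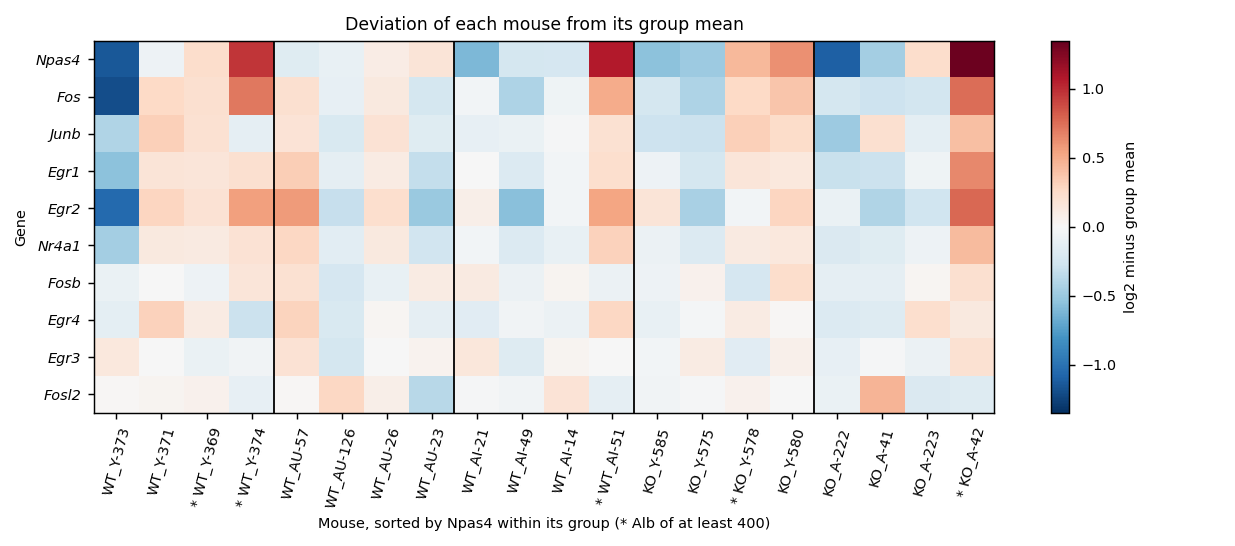
Deviation of each mouse from its group mean in log2 units (colour; red above, blue below) for the 10 genes (rows) and 20 mice (columns, sorted by Npas4 within WT_Y, WT_AU, WT_AI, KO_Y and KO_A; asterisks mark Alb of at least 400). The upper 6 rows change colour together, most plainly in mice WT_Y-373, WT_AI-51 and KO_A-42, and the rows of Egr3 and Fosl2 do not follow them.

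**Figure D4:**
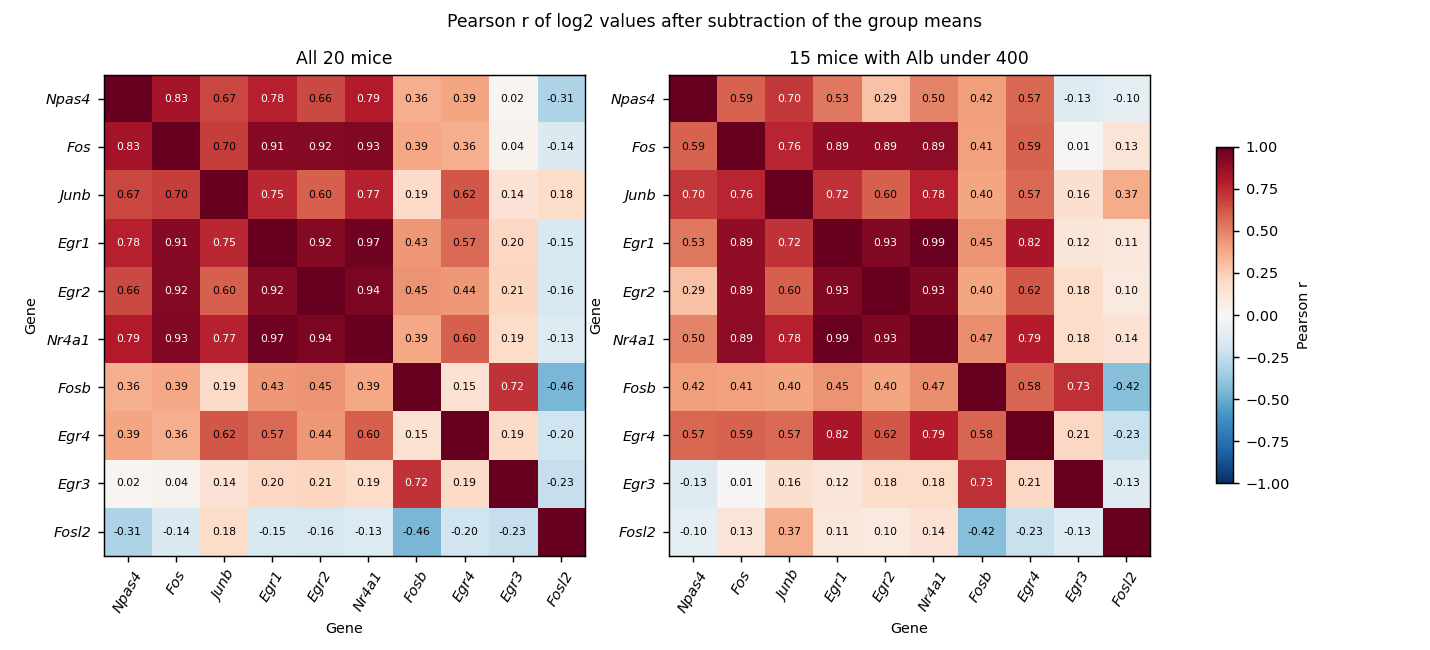
Pearson r for each pair of the 10 genes (both axes) after subtraction of group means, over all 20 mice (left) and over the 15 mice with Alb under 400 (right). Fos, Egr1, Egr2 and Nr4a1 have r from 0.89 to 0.99 with one another over both panels, and the r of Npas4 with Egr2 is 0.66 on the left and 0.29 on the right.

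The mice with the most Npas4 were mostly those with liver transcripts. In WT_Y, WT_AI and KO_A the highest Npas4 reading came from a mouse with high Alb (WT_Y-374 with 2912, WT_AI-51 with 447.7 and KO_A-42 with 889.3), and in KO_Y the mouse with high Alb was second. The 5 mice with high Alb all lay above their group mean in Npas4, and formed a cluster apart from the other 15 in the mean of Alb, Apoa1 and Apoa2, so no correlation with that mean over all 20 mice is given. Within the 15 others, that mean correlated with Egr1 (r = 0.84, rho = 0.76, permutation p = 0.00497 and 0.0248), Nr4a1 (0.77 and 0.69, permutation p = 0.0138 and 0.0636) and Egr2 (0.75 and 0.70, permutation p = 0.0146 and 0.0429), each with adjusted p = 0.0487 for r and 0.115 for rho over the 10 relations. Egr4 had the highest r (0.85, rho = 0.68, permutation p = 0.0314 and 0.0691, adjusted p = 0.0628 and 0.115), and Fosb had 0.61 (rho = 0.52, permutation p = 0.0378 and 0.0647, adjusted p = 0.063 and 0.115). For Npas4 it was 0.44 (rho = 0.39, permutation p = 0.206 and 0.296, adjusted p = 0.294 and 0.409) and for Fos 0.65 (rho = 0.66, permutation p = 0.0301 and 0.0512, adjusted p = 0.0628 and 0.115). Of 9 liver and pituitary markers listed, 8 had a probe set and 6 passed the filter. Their summed level ran from 8847 to 24962 in WT_Y, from 4316 to 20224 in WT_AU, from 4223 to 21177 in WT_AI, from 1735 to 21198 in KO_Y and from 6784 to 20827 in KO_A, most of it Ttr, which the choroid plexus also makes. None of the 6 was at 0, but in the 15 mice Apoa1 read at most 37.6 and Apoa2 at most 78.2, against at least 63.6 and 175.6 in the 5. With the mean of Alb, Apoa1 and Apoa2 as a covariate over all 20 mice, the r of Npas4 fell from 0.83 to 0.54 with Fos, from 0.79 to 0.46 with Nr4a1, from 0.78 to 0.46 with Egr1, from 0.67 to 0.54 with Junb and from 0.66 to 0.24 with Egr2, and 0 of the 9 relations passed. Because the 5 mice stand apart in this mean, its effect as a covariate cannot be told apart from the split of 5 against 15.

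**Figure D5:**
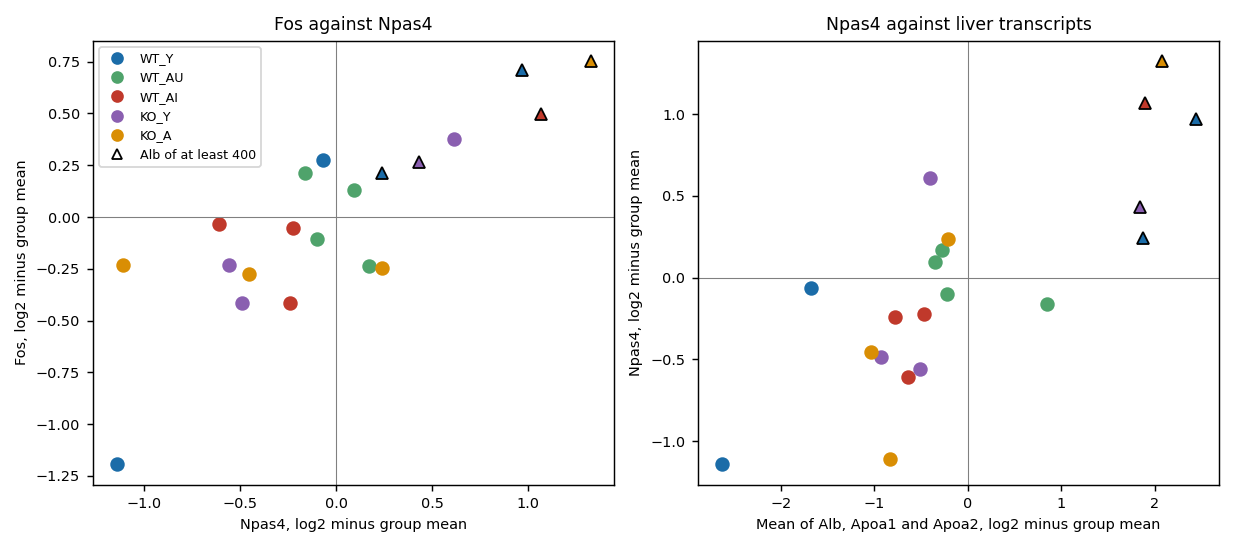
Left, deviation of Fos (vertical axis) against that of Npas4 (horizontal axis) from the group mean in log2 units; right, deviation of Npas4 (vertical axis) against that of the mean log2 of Alb, Apoa1 and Apoa2 (horizontal axis), 1 point per mouse, coloured by group, with triangles for the 5 mice with Alb of at least 400. The triangles lie above 0 for Npas4 in both panels, and mouse WT_Y-373 lies at the lower left of both.

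The genes whose deviations were most like those of Npas4, of 9890 kept genes over 20 mice, were Dusp1, the phosphatase that ends MAP kinase signalling (r = 0.88), Btg2, an activity-induced regulator of cell division (0.84), Serpina1c and Cela1 (0.84 each), Fos, Alb (0.82), Shisa5, Fabp1, Nup160 and Serpina1b (0.80). Alb, Fabp1, Serpina1b and Serpina1c are made by the liver, and these r span the 5 mice of high Alb and the other 15. The least like were Zfp580, Mlec and Ankrd6 (r from -0.77 to -0.76). Of all genes, 1.6% reached r of 0.6 with Npas4. In the 15 mice with Alb under 400 the leading genes were others, Chpf2, Ing5, Hey1, Hsdl1 and S100a9 (r from 0.92 to 0.86), and Dusp1 had r = 0.67 and Btg2 r = 0.70.

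The deviations of the 10 genes were also set against the means of 16 lists of cell type markers, which makes 160 relations. By r, 17 had an unadjusted permutation p under 0.05 and 0 passed after adjustment over the 160 (lowest adjusted p = 0.0923). By rho, 16 and 3 did. The 3 were Fosl2 with astrocyte markers (r = -0.76, rho = -0.80, adjusted permutation p = 0.106 and 0.0288), Fosl2 with pan-neuronal markers (0.74 and 0.77, adjusted permutation p = 0.0923 and 0.0336) and Egr2 with CA3 pyramidal markers (-0.70 and -0.71, adjusted permutation p = 0.0923 and 0.0288). Fosl2 had r = 0.69 with interneurone and -0.74 with microglial markers. CA3 pyramidal markers had r = -0.67 with Fos, -0.59 with Nr4a1, -0.58 with Egr1 and -0.49 with Npas4 (unadjusted permutation p = 0.0945 for the last), and Junb had r = -0.63 with leptomeningeal and 0.63 with interneurone markers, none of these passing. The smallest unadjusted permutation p by r was that of Egr1 with the liver and pituitary list (0.00084). Npas4, Fos, Egr2 and Nr4a1 were also under 0.05 with that list, and none passed. No r is given for it, since the mice of high Alb stand apart in liver genes. Without the 2 mice farthest out in the astrocyte and pan-neuronal lists (KO_A-41 and KO_A-222 in both), the r of Fosl2 was -0.66 with astrocyte and 0.64 with pan-neuronal markers. The summed astrocyte level ran from 28295 to 30122 in WT_Y, 29349 to 30542 in WT_AU, 28761 to 31227 in WT_AI, 27676 to 29653 in KO_Y and 29673 to 36391 in KO_A, and the summed pan-neuronal level from 37823 to 40511, 38168 to 40769, 37717 to 40353, 38990 to 40561 and 36168 to 41634. None of these markers was at 0. The summed CA3 pyramidal level ran from 1571 to 2141 in WT_Y, 1678 to 2086 in WT_AU, 1765 to 2219 in WT_AI, 1912 to 1995 in KO_Y and 1643 to 2133 in KO_A. The part of these markers in the group values of the 10 genes was not tested.

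The genes around the 10, from lists of known function, were described in the same comparisons. Genes of a list were read in the same mice, so a count over a list is not one of independent results. Of 13 other activity-induced factors that passed the filter, 12 were below 0 in WT_AI against WT_AU (median -0.16), none called, led by Klf4 (-0.87, adjusted p = 0.381 by limma) and Ier2 (-0.40). Klf4 was the 1 gene of that list called anywhere, higher in WT_AU than in WT_Y (1.09, adjusted p = 0.0011 by limma). The feedback inhibitors were below 0 in 6 of 6 (median -0.11), with Dusp1 at -0.39 and Dusp6 at -0.17. Of 15 effectors and late targets, 11 were below 0 (median -0.05), with Arc, whose protein is made at active synapses, at -0.46 (SE 0.21, unadjusted p = 0.0413). Dimer partners and cofactors (6 of 8 below 0, median -0.01) and the kinases and factors upstream of the promoters (5 of 16 below 0, median 0.01) lay at the level of all probe sets, none called.

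Glucocorticoid-induced genes were below 0 in 15 of 15 in WT_AI against WT_AU (median -0.13), none called. Clock genes were below 0 in 10 of 12 (median -0.04). Of all probe sets, 54.3% were below 0 in this comparison. Both groups were wild-type, and on the arrays Hsd11b1 averaged 677 in WT_AI and 674.8 in WT_AU. By quantitative PCR the study found more Hsd11b1 mRNA in WT_AI than in WT_Y, which it did not see on the arrays. Whether Hsd11b1 bears on these lists was not tested. Per1 is counted in both lists and among the other activity-induced factors. In WT_AI against WT_Y the medians of all these lists lay between -0.07 and 0.01, none of their genes called. Single genes of these lists passed an unadjusted p of 0.05 by limma, as did 4.87% of all probe sets. Lower were Arc (-0.51, unadjusted p = 0.0234), Ier2 (-0.51, 0.0145), Btg2 (-0.47, 0.00671), Dusp5 (-0.32, 0.00249) and Gadd45g (-0.27, 0.00479). Mertk was higher (0.22, unadjusted p = 0.00305 by limma). In KO_A against KO_Y, 2.41% of all probe sets were called by limma. There 13 of 15 effectors and late targets were below 0 (median -0.12, against 0.02 for all probe sets, of which 43.6% were below 0). Inhba was called lower (-0.30, adjusted p = 0.0361 by limma). Of 15 glucocorticoid-induced genes 3 were called higher, Mertk (0.36, adjusted p = 0.00714), Pdk4 (0.54, adjusted p = 0.0362) and Sult1a1 (0.59, adjusted p = 0.0456), all by limma. Mertk was also called higher in WT_AU than in WT_Y (0.38, adjusted p = 0.00587 by limma). With each of the 20 mice left out in turn, Klf4 and both calls of Mertk held in 20 of 20, Pdk4 in 14 of 20, Inhba in 13 of 20 and Sult1a1 in 5 of 20, and without the mice of high Alb only Klf4 was called. The call of Inhba was lost without any of the 4 KO_Y mice and without KO_A-42, KO_A-222 or KO_A-223, that of Pdk4 without the same mice except KO_Y-585. That of Sult1a1 was lost without each of these and 8 wild-type mice, with an adjusted p of at most 0.156 by limma. Inhba encodes an activin subunit, Mertk a receptor for engulfing dead cells, Pdk4 a kinase that spares glucose and Sult1a1 a sulphotransferase.

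Within groups, the same lists split by gene, and the genes named next were chosen after their values were seen. With Fos, r over the 20 mice was 0.87 for Dusp1, 0.86 for Btg2, 0.81 for Ier2, 0.76 for the clock gene Per1, 0.74 for Jund, 0.71 for Arc and 0.70 for Dusp5. It was -0.42 for Jun and -0.58 for Bdnf, the neurotrophin gene, both also activity-induced. In all, 4 of 13 other activity-induced factors, 2 of 6 feedback inhibitors, 1 of 8 partners, 0 of 16 upstream genes, 1 of 15 effectors, 1 of 15 glucocorticoid-induced genes and 2 of 12 clock genes reached r of 0.6 with Fos, against 1.74% of all 9891 genes. The lists overlap, and Per1 is the 1 glucocorticoid-induced gene and is counted again among the clock genes and the other activity-induced factors. In the 15 mice with Alb under 400, r with Fos was 0.70 for Dusp1, 0.78 for Btg2, 0.70 for Ier2, 0.73 for Per1, 0.65 for Arc and 0.39 for Jund. These r are descriptions across mice that share a dissection and an array, with no test.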

How the data were processed

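The deposited values are intensities on a linear scale that the authors made from 20 arrays with RMA (background correction, quantile normalisation and summary over a probe set's probes). Log2 was taken here. Arrays have no read depth, and 4 mice per group limit the precision. Probe sets reading at least 100 in at least 2 arrays were kept, 16995 of 45037. The 5 groups, from the labels, were fitted together with limma 3.58.1 (R 4.3.3) and p-values adjusted by Benjamini-Hochberg. Single values were compared by exact permutation, two-sided. For covariation, group means were subtracted and mice permuted within groups (100000 times, two-sided). Rank products, the study's other method, was an alternative with 50 permutations. Genes were named through the platform annotation, and only from probe sets listed with a single gene (34945, against 932 with several and 9160 with none). The genes named are the 10, the 10 genes most and 3 least like Npas4, and of each pathway list those among the 4 of smallest p in a comparison, with exceptions stated. The members and lists were chosen with earlier results of these data known. The exclusion of the 5 mice with high Alb, the liver covariate, rank products without those mice and the adjustment over all relations with marker lists were chosen after seeing the data. The scripts were tested on simulated data. Nothing in the labels says that mice of a group shared a litter or batch, and the arrays' dates were not used here.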

Additional observations from a re-analysis of the deposited data

Results flagged for a closer look

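In 4 of the 50 sets of 4 mice (10 genes in 5 groups), 1 mouse stood apart from the other 3 by more than Dixon's 95% critical value for the gap over the range, where chance gives about 1 in 20. Fos in mouse KO_A-42 (707.9) had a ratio of 0.959. Fosl2 in mouse KO_A-41 (507.2) had a ratio of 0.833. In mouse WT_Y-373, Egr1 (1381) had a ratio of 0.932 and Nr4a1 (452.7) one of 0.896.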

How the results depend on the processing

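No member was called by limma under the alternatives run, which were array weights, no filter, leaving out single mice and covariates among them. By rank products 2 members were called in WT_AI against WT_Y, 2 in WT_AI against WT_AU and 1 in KO_Y against WT_Y, and without the mice of high Alb 1 in WT_AI against WT_Y (1.04% of all probe sets called) and 2 in WT_AI against WT_AU (0.135%). Of the 9 correlations with Npas4, 0 passed without the 2 mice farthest from the median of Npas4, 0 without the mice of high Alb and 0 with the liver covariate. With single mice left out, 3 to 6 passed by r and 0 to 6 by rho, with 0 by rho without WT_Y-373 or WT_AI-51. The cause was not tested.

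These values turned sign, and among them those of Npas4 in WT_AU against WT_Y also grew in size. In WT_AI against WT_Y, the log2 fold change of Fosl2 was 0.0297 with the mean of all probe sets and 0.0135 without the mice of high Alb, that of Egr3 was -0.0214 without mice WT_Y-369 and WT_Y-374 and -0.0185 without the mice of high Alb, and that of Nr4a1 was 0.0174 with choroid plexus and leptomeningeal covariates and 0.0196 with the liver covariate. In WT_AU against WT_Y, Npas4 was at 0.437 without mice WT_Y-369 and WT_Y-374, 0.376 with choroid plexus and leptomeningeal covariates, 0.437 without the mice of high Alb and 0.651 with the liver covariate, and Fos at -0.0383 with array weights. Egr3 in WT_AI against WT_AU was 0.0328 with the mean of all probe sets, Fos in KO_A against KO_Y -0.0196 with array weights and Fos in KO_Y against WT_Y 0.0724 without mice WT_Y-369 and WT_Y-374. The r of Egr3 with Npas4 was -0.0563 without subtraction, -0.0279 with centred arrays, -0.116 with the mean of all probe sets, -0.321 without the 2 farthest mice, -0.227 with choroid plexus and leptomeningeal covariates and -0.128 without the mice of high Alb.

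With single mice left out, Fosl2 in WT_AI against WT_Y ran from -0.0608 to 0.0402, Egr3 from -0.00135 to 0.106, Npas4 in WT_AU against WT_Y from -0.548 to 0.155, Fos from -0.391 to 0.243, Egr3 in WT_AI against WT_AU from -0.105 to 0.0362, Npas4 in KO_A against KO_Y from -0.0908 to 0.72, Fos from -0.0624 to 0.315, and r of Egr3 with Npas4 from -0.288 to 0.19.

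Counts over all probe sets moved more. Over the other alternatives they ran from 2 to 108 in WT_AI against WT_Y, 28 to 188 in WT_AU against WT_Y, 14 to 3708 in KO_A against KO_Y, 4 to 43 in KO_Y against WT_Y, 1 to 1144 in WT_AI against KO_A and 0 to 444 for the difference between the age effects. With single mice left out, KO_A against KO_Y ran from 98 to 2628. No paired analysis was possible because the groups share no mouse number.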
